A study of Homo sapiens with 44 samples.

Results

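The genes described here belong to 7 families of developmental transcription factors that lie outside the HOX clusters: SOX, PAX, TBX, LHX, DLX, IRX and the sine oculis homeobox genes SIX2 to SIX6. They were chosen by name, as protein-coding genes whose symbol is a family name followed by digits and at most 1 letter. The members described are 66 genes: 19 SOX, 13 TBX, 9 PAX, 8 LHX, 6 DLX, 6 IRX and 5 sine oculis homeobox genes. All 66 were found in both expression tables, which hold 58735 gene identifiers and 27315 gene symbols. No measured value entered the choice.

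RNA was sequenced in 14 libraries, 7 groups of 2, from MDA-MB-231 and SUM149, established human lines of triple-negative breast cancer, a class without oestrogen receptor, progesterone receptor or HER2 amplification. In the first experiment MDA-MB-231 cells received siRelA, siRelB or siControl. In the second, MDA-MB-231 cells received siEZH2 or siControl, and SUM149 cells received siEZH2 or siControl. Every group, controls included, was transfected with 20 nM siRNA in Dharmafect I and, by the protocol's default, collected after 48 h, so each knockdown was transient and measured at a single time. RELA and RELB are DNA-binding subunits of NF-kB, and EZH2 carries the histone methylating activity of the Polycomb complex PRC2. Replicates are described as biological duplicates and nothing more is said of their source, so p-values measure the spread between these libraries.

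SOX factors bind DNA through an HMG box, PAX through a paired domain, TBX through a T-box, and the proteins of the other 4 families through homeodomains. They set cell identity in the embryo, and in most adult cell types only a few members of each family are transcribed. Many of their genes sit in CpG-rich chromatin that PRC2 marks with trimethylated histone H3 lysine 27 in cells where they are silent. In breast epithelium SOX9 is known from progenitor cells, SOX4 from mesenchymal change in tumour cells, and TBX3 from mammary gland formation.

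Promoter windows, from 250 bases before to 50 bases after an annotated start, were available from RefSeq (GRCh38.p14) for 43 of the 66 members, 69 windows in all. Those of SOX4, SOX12 and SOX13, which were higher under siEZH2 in both lines, and of LHX4, which was lower in MDA-MB-231, are printed here, all from the plus strand, with each CG dinucleotide in capitals. They lie at chr6:21593501-21593800, chr20:325302-325601, chr1:204072865-204073164 and chr1:180230014-180230313.
SOX4: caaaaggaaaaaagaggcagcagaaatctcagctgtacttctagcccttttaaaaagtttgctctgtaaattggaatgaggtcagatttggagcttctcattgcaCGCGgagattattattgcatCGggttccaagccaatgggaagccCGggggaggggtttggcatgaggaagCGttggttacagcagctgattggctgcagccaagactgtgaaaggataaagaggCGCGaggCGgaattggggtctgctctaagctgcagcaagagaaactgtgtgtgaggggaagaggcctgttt
SOX12: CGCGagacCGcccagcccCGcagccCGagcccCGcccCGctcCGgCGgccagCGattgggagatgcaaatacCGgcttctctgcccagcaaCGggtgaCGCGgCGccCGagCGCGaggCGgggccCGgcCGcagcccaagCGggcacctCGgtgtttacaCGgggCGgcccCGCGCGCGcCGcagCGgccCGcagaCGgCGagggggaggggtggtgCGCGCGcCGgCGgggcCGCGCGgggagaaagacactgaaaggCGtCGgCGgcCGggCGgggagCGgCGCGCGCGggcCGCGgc
SOX13: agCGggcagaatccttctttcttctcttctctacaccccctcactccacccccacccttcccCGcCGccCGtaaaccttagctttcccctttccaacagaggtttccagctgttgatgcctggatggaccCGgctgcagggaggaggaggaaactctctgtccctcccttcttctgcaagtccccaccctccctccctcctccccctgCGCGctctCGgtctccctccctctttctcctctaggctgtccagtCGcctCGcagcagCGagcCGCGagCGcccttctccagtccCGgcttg
LHX4: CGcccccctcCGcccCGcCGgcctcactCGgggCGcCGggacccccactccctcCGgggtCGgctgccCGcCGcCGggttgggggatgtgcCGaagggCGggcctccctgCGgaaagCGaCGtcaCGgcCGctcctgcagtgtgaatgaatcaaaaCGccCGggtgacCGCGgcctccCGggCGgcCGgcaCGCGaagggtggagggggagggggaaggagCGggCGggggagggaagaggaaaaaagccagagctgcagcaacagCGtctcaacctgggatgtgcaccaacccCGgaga

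These windows differ widely in CpG content. The SOX12 window holds 54 CG dinucleotides and has a GC content of 80.3%, the LHX4 window 32 and 72.7%, the SOX13 window 15 and 62.7%, and the SOX4 window 8 and 49.3%. A window was counted as CpG-rich where the ratio of observed to expected CG was at least 0.6 and the GC content at least 50%. By that measure 45 of the 69 member windows (65.2%) were CpG-rich, against 46.9% of the 35116 windows in the whole table. The NF-kB consensus was found on either strand in 7 member windows (10.1%), against 11.3% of all windows. Those 7 belong to PAX2, PAX4, SIX6, SOX2, SOX21, SOX30 and TBX1, and the 4 windows printed above hold no match. Of the 33 members tested for change, 5 have over 20% of their exon bases on the opposite strand of another gene's exons: SIX5 (59.6%), LHX4 (30.7%), PAX9 (25.4%), PAX8 (22.4%) and DLX6 (22.0%). The strand setting of the counting is not given in the sources used here, so reads of such a pair cannot be told apart. SOX7 shares 39.4% of its exon bases with another gene on the same strand, so its values are uncertain under any strand setting. A match of the consensus describes letters only and is no measure of binding.

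The targeted genes, read in every library, matched the labels. RELA had 265 and 275 counts under siRelA, against 3562 and 3391 under siControl, and RELB had 90 and 107 under siRelB, against 923 and 916 under siControl. RELB was lower under siRelA as well, at 377 and 295 counts (-1.48 ± 0.14, edgeR adjusted p = 1.6e-06). EZH2 had 368 and 298 normalised reads under siEZH2, against 3022 and 3020 under siControl, in MDA-MB-231. In SUM149 it had 442 and 517 under siEZH2 against 2563 and 2746 under siControl (limma adjusted p = 5.5e-11 in MDA-MB-231 and 4.8e-10 in SUM149). RELB was lower under siEZH2 too, at 184 and 206 normalised reads under siEZH2 against 632 and 589 under siControl in MDA-MB-231 (a change of -1.02 ± 0.08, limma adjusted p = 1.7e-07). It stood at 281 and 293 under siEZH2 against 553 and 440 under siControl in SUM149 (-0.50 ± 0.08, limma adjusted p = 0.00011). Changes are given throughout as the fitted value ± its SE. Those of the first experiment, and those on recovered reads, are log2 fold changes. Other changes of the second experiment are differences of variance-stabilised values. These are smaller than log2 fold changes, most of all at few reads, so their sizes are not compared with the first experiment. Library totals were 18.6 to 24.4 M counts in the first experiment, and totals estimated from the second table were 17.4 to 38.1 M reads. MDA-MB-231 libraries held 0 counts and at most 1.93 normalised reads of KRT5, a basal keratin, and up to 24.5 normalised reads of CDH1, the epithelial cadherin, beside abundant VIM. EPCAM, another epithelial gene, was not low there, with 1410 and 1297 normalised reads under siControl. In SUM149 it had 1594 and 1460 under siControl. In SUM149, KRT5 lay between 1015 and 1949 and CDH1 between 102 and 162 normalised reads. The basal keratin KRT14 was at 0 to 4.06 there, and VIM was higher than in MDA-MB-231. These markers thus set the lines apart only in part. SUM149 libraries also held 2024 to 4626 normalised reads of DCN, a fibroblast proteoglycan, with COL1A2 at 0 to 3.03.

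Many members were not detected. The lowest value of the variance-stabilised (VST) table of the second experiment, 7.12, stands for 0 reads. Of the 66 members, 17 (25.8%) lay at that value in all 8 libraries, against 16.8% of the 18372 protein-coding symbols in the table. In the counts, 24 members (36.4%) were at 0 in all 6 libraries, against 21.1% of 19831 protein-coding genes. Both held for 16: IRX4, IRX6, LHX5, PAX1, PAX2, PAX3, PAX4, SOX1, SOX3, SOX8, SOX11, SOX14, SOX17, TBX5, TBX21 and TBX22. Another 17 members had reads in some library but passed neither filter: DLX3, DLX5, LHX2, LHX8, PAX5, PAX6, PAX7, SIX6, SOX2, SOX10, SOX18, SOX21, SOX30, TBX2, TBX4, TBX6 and TBX10. Their highest values were 10 counts, in DLX3 and SOX18, and 22.5 normalised reads, in LHX2 and PAX6 in SUM149 under siEZH2. This left 33 members tested in at least 1 experiment, 25 in the first, 23 in the second and 15 in both. SOX10, at the VST minimum throughout, had at most 5 counts in the first experiment. A count of 0 allows up to 3 reads, which is 0.123 to 0.161 CPM (counts scaled to a common library total) in the first experiment and 2.12 to 4.92 normalised reads in the second, for counting error only.

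The members at the VST minimum were not the same in the lines. Of the 66, 29 lay at the VST minimum in all 4 MDA-MB-231 libraries and 24 in all 4 SUM149 libraries. The 12 that were at the minimum in MDA-MB-231 alone were DLX5, DLX6, IRX2, LHX2, LHX8, PAX6, SIX6, SOX30, TBX2, TBX3, TBX10 and TBX20. The 7 at the minimum in SUM149 alone were IRX1, LHX3, PAX7, SOX2, SOX21, TBX1 and TBX4. Of these 19, DLX5, SIX6, SOX30 and TBX10 in SUM149 and PAX7, SOX2, SOX21 and TBX4 in MDA-MB-231 had at most 2.89 normalised reads, within the limit of 3 reads, so for them a difference between the lines was not detectable at this depth. By family, 7 of 19 SOX, 4 of 9 PAX, 3 of 13 TBX, 2 of 6 IRX and 1 of 8 LHX genes were at the minimum in all 8 libraries, and none of SIX2 to SIX6 or DLX1 to DLX6 was.

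More members were detected in SUM149 than in MDA-MB-231. At least 10 reads in both libraries of a group were found, before scaling to library size, for 21 members under siRelA, 18 under siRelB and 21 under their siControl. In the second experiment the number was 18 under siEZH2 and 16 under siControl in MDA-MB-231, and 31 under siEZH2 and 26 under siControl in SUM149. With at least 100 reads the numbers were 12, 10 and 11 in the first experiment for siRelA, siRelB and siControl. They were 10 for siEZH2 and 9 for siControl in MDA-MB-231, and 17 for siEZH2 and 12 for siControl in SUM149. Estimated totals in SUM149 were 28.8 and 27.4 M reads under siEZH2 but 17.4 and 25.5 M under siControl, so these groups differ in depth. The share of all genes detected in each group was not computed.

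**Figure D1:**
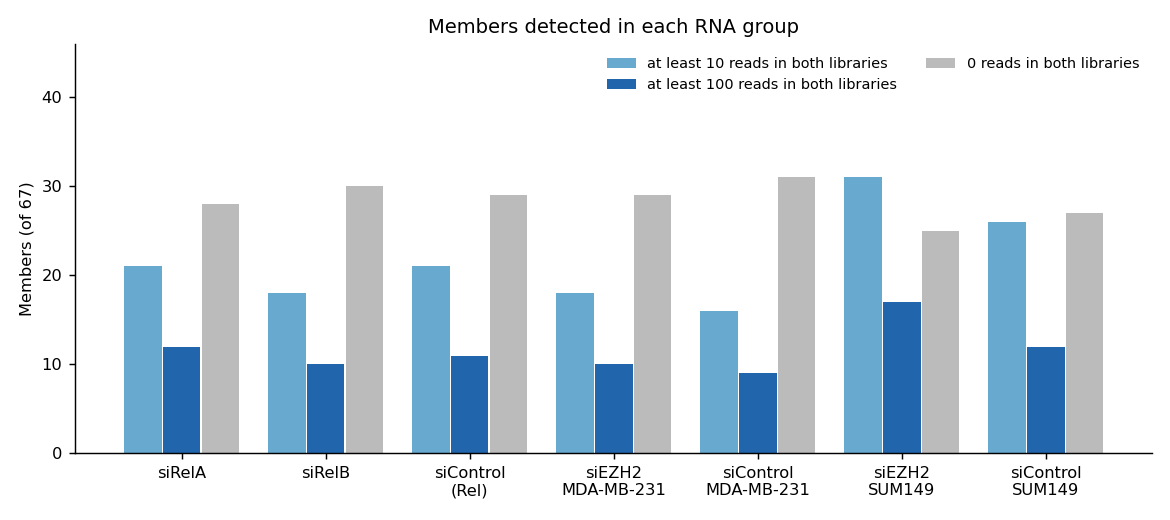
Number of the 66 members (vertical axis) with at least 10 reads in both libraries, at least 100 reads in both libraries or 0 reads in both libraries, for each of the 7 RNA groups. The total in the axis label also counts the gene not reported here, which the bars leave out. Reads are counts in the first experiment and, in the second, reads recovered from the VST values before scaling to library size. The SUM149 groups hold 31 and 26 members with at least 10 reads, the MDA-MB-231 groups 16 to 21.

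SOX9 was the most abundant member per exon length in all 5 MDA-MB-231 groups. It stood at 47.2 ± 2.87 reads per kb, scaled to library size, under siRelA, 31.9 ± 2.32 under siRelB and 39.3 ± 1.64 under their siControl (SD, n = 2 each). It stood at 11.1 ± 1.78 under siEZH2 and 14.5 ± 1.12 under siControl in the second experiment. The experiments were sequenced at different facilities and processed with different tools, so levels are not compared between experiments. In SUM149 the first place went to SOX4, with 10.7 ± 0.35 under siEZH2 and 6.90 ± 0.04 under siControl on the same per-length scale. TBX3 followed, with 8.02 ± 0.60 under siEZH2 and 6.13 ± 0.43 under siControl, a member without reads in the MDA-MB-231 libraries of that experiment.

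More members were higher than lower under siEZH2 in both lines. Under siEZH2, 10 of the 23 members tested changed in MDA-MB-231, 8 of them higher and 2 lower (limma adjusted p under 0.05). The background was large: 56.6% of the 12356 genes tested changed in that line, 29.4% higher and 27.1% lower. In SUM149, 17 of 23 members changed, 15 higher and 2 lower, where 58% of all genes changed, 29.4% higher and 28.6% lower. As shares, 34.8% of the tested members were higher in MDA-MB-231 and 65.2% in SUM149. The members' median change was 0 in MDA-MB-231 and 0.21 in SUM149 on the VST scale, beside 0.0026 and -0.0013 over all genes tested. The MDA-MB-231 median is the value of DLX6, IRX2, TBX3 and TBX20, which had no reads in the MDA-MB-231 libraries of this experiment. It so says nothing of the members that did.

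Part of that count follows from the filter on low values. A gene was tested where it lay at least 1 above the VST minimum, about 69.6 normalised reads, in at least 2 of the 8 libraries. LHX1, LHX6, PAX9, SOX5 and TBX15 reached this in siEZH2 libraries alone, so that these 5 had to be higher in 1 of the siEZH2 groups. Among members at least 1 above the minimum in both control libraries of a line, 6 of 9 changed in MDA-MB-231, 4 higher and 2 lower. The same level was reached by 11257 genes, of which 29.6% were higher and 29.1% lower. In SUM149, 10 of 14 such members changed, 8 higher and 2 lower, beside 28.4% higher and 31.5% lower among 11008 genes. In bulk RNA, fewer cells that express a gene and less RNA per cell cannot be told apart.

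**Figure D2:**
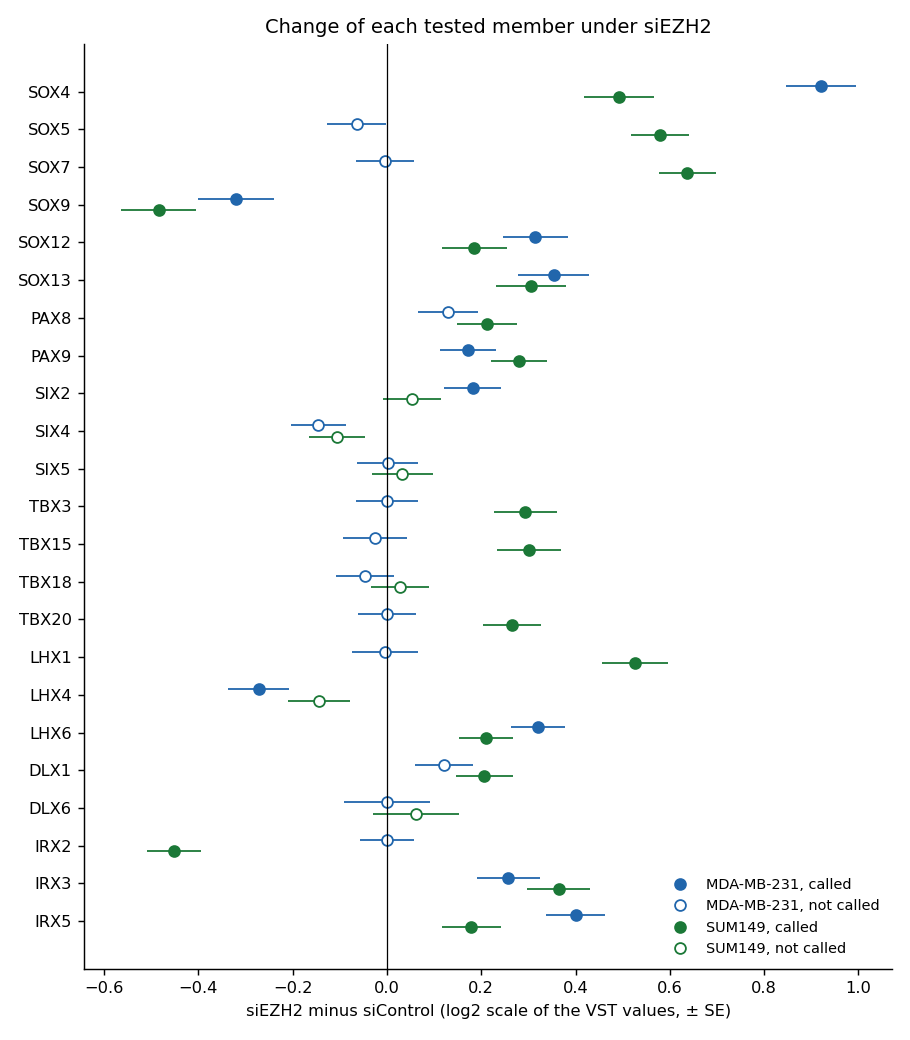
Change of each of the 23 tested members, siEZH2 minus siControl, on the log2 scale of the VST values (horizontal axis), in MDA-MB-231 (blue) and SUM149 (green), with bars of 1 SE from the fit and filled points for changes called at adjusted p under 0.05. SOX4, IRX3, IRX5, SOX12, SOX13, LHX6 and PAX9 lie right of 0 and are called in both lines, and SOX9 lies left of 0 and is called in both.

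SOX4, an HMG-box factor active in progenitor cells, was among the members with the largest rise. It read 9.34 and 9.15 under siEZH2, against 8.39 and 8.26 under siControl, in MDA-MB-231 on the VST scale, and 10.73 and 10.76 under siEZH2 against 10.24 and 10.26 under siControl in SUM149. The groups did not overlap in either line. With 2 libraries per group such separation adds little to the test, and its share over all genes was not computed, here or below. The change was 0.92 ± 0.07 in MDA-MB-231, or 3.51-fold more recovered reads (limma adjusted p = 3.1e-07). In SUM149 it was 0.49 ± 0.07, or 1.51-fold more (limma adjusted p = 8.4e-05). The gene, at 21593751 to 21598619 of chromosome 6 in GRCh38, has a low-CpG promoter window, printed above.

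SOX12, of the same subgroup as SOX4, moved less. It read 9.30 and 9.26 under siEZH2 and 8.90 and 9.04 under siControl in MDA-MB-231 (0.31 ± 0.07, limma adjusted p = 0.0016), while SUM149 libraries read 9.09 and 9.06 under siEZH2 against 8.94 and 8.84 under siControl (0.19 ± 0.07, adjusted p = 0.034). SOX13, an HMG-box factor of the SOXD subgroup, read 10.04 and 9.94 under siEZH2 against 9.54 and 9.73 under siControl in MDA-MB-231 (0.35 ± 0.07, limma adjusted p = 0.0012), while SUM149 libraries read 9.56 and 9.62 under siEZH2 against 9.23 and 9.33 under siControl (0.31 ± 0.07, adjusted p = 0.0034). Neither gene had overlapping groups in either line. The CpG-dense SOX12 window and the SOX13 window above thus belong to genes that both rose in both lines.

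SOX9 went the other way. It read 10.59 and 10.35 under siEZH2, against 10.86 and 10.72 under siControl, in MDA-MB-231 (-0.32 ± 0.08, limma adjusted p = 0.0038). In SUM149 it read 9.44 and 9.35 under siEZH2 against 9.87 and 9.88 under siControl (-0.48 ± 0.08, limma adjusted p = 0.00017), 1.61-fold fewer recovered reads. Without siControl replicate 1 or siEZH2 replicate 2 of MDA-MB-231 its adjusted p in that line missed the threshold, with values up to 0.070. The other SOX genes that changed did so in SUM149. SOX7, an endothelial SOX factor of the F subgroup, read 8.91 and 8.85 under siEZH2 and 8.21 and 8.28 under siControl (0.64 ± 0.06, limma adjusted p = 1.5e-06), 2.64-fold more recovered reads. SOX5, a cartilage factor without a transactivation domain, read 8.49 and 8.36 under siEZH2 against 7.84 and 7.85 under siControl (0.58 ± 0.06, limma adjusted p = 4.1e-06). Their groups did not overlap. SOX5 passed the filter on low values through these siEZH2 libraries alone, so it had to be higher there. SOX7 shares 39.4% of its exon bases with another gene on the same strand, so its values are uncertain. In MDA-MB-231, SOX7 lay between 7.46 and 7.55 and SOX5 between 7.12 and 7.24 in all 4 libraries, the level of at most 12.5 normalised reads.

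**Figure D3:**
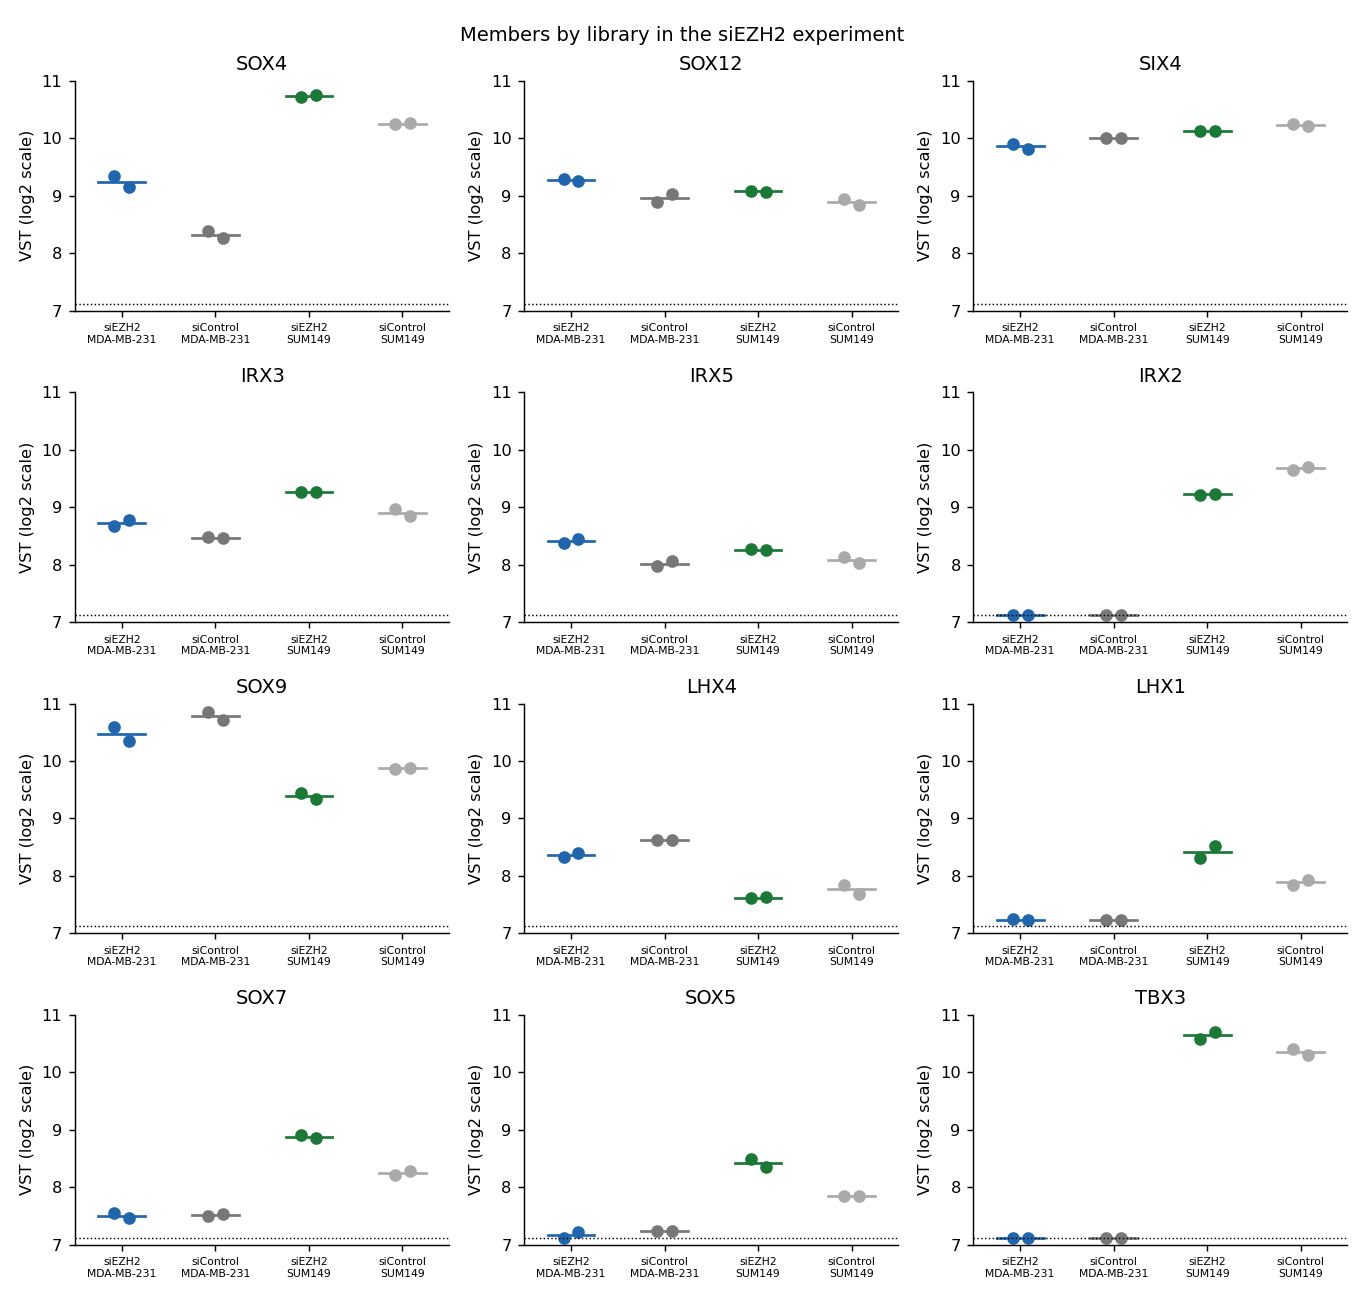
VST value (vertical axis, log2 scale) of 12 members in each library of the siEZH2 experiment; points are libraries, short lines group means and the dotted line the lowest value of the table, 7.12. SOX4, SOX12, IRX3 and IRX5 are higher under siEZH2 than under siControl in both lines and SOX9 is lower, SIX4 passes in neither, and IRX2 and TBX3 have reads in SUM149 and none in MDA-MB-231.

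The sine oculis homeobox factors act with EYA cofactors in muscle and sensory organ formation. SIX2, a kidney progenitor factor, read 8.10 and 8.04 under siEZH2 against 7.91 and 7.87 under siControl in MDA-MB-231 (0.18 ± 0.06, limma adjusted p = 0.021), while SUM149 libraries read 8.23 and 8.33 under siEZH2 against 8.25 and 8.21 under siControl, and there the groups overlapped (0.05 ± 0.06). SIX4 did not pass the test in either line. It read 9.91 and 9.82 under siEZH2 and 10.00 and 10.01 under siControl in MDA-MB-231 (-0.15 ± 0.06, limma adjusted p = 0.051; on recovered reads, edgeR adjusted p = 0.036), while SUM149 libraries read 10.13 and 10.12 under siEZH2 against 10.25 and 10.21 under siControl (-0.11 ± 0.06, adjusted p = 0.14). SIX5 stayed within 8.76 to 8.90 in all 8 libraries and passed in neither line.

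IRX factors pattern the neural tube, heart and limb, and their genes lie in clusters of 3. IRX3 and IRX5, 644 kb apart on chromosome 16, were both higher in both lines, while IRX6 of the same cluster had no reads. IRX3 read 8.68 and 8.77 under siEZH2 against 8.47 and 8.46 under siControl in MDA-MB-231 (0.26 ± 0.07, limma adjusted p = 0.005), while SUM149 libraries read 9.27 and 9.26 under siEZH2 against 8.96 and 8.84 under siControl (0.36 ± 0.07, adjusted p = 0.0004). IRX5 read 8.38 and 8.45 under siEZH2 against 7.97 and 8.05 under siControl in MDA-MB-231 (0.40 ± 0.06, limma adjusted p = 0.00011), 2.17-fold more recovered reads. In SUM149 it read 8.27 and 8.25 under siEZH2 against 8.13 and 8.03 under siControl (0.18 ± 0.06, limma adjusted p = 0.025). No groups overlapped. The other cluster, on chromosome 5, behaved differently: IRX2 was at the minimum in all 4 MDA-MB-231 libraries and was lower under siEZH2 in SUM149, at 9.21 and 9.24 under siEZH2 against 9.65 and 9.71 under siControl (-0.45 ± 0.06, limma adjusted p = 2.1e-05). IRX1, 844 kb away, had 13.3 to 31.8 normalised reads in MDA-MB-231 and 0 in SUM149, and IRX4 none in either.

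The 3 T-box genes called under siEZH2 were called in SUM149, and in MDA-MB-231 they had few or no reads. TBX3, a repressor needed for mammary bud growth, read 10.59 and 10.70 under siEZH2 and 10.40 and 10.30 under siControl in SUM149 (0.29 ± 0.07, limma adjusted p = 0.0018), 1.28-fold more recovered reads. TBX20, a heart factor, read 8.89 and 8.80 under siEZH2 against 8.64 and 8.52 under siControl (0.26 ± 0.06, limma adjusted p = 0.0023), and TBX15, a skeletal and fat factor, 8.35 and 8.33 under siEZH2 against 7.98 and 8.10 under siControl (0.30 ± 0.07, adjusted p = 0.002). The groups of all 3 were apart, but TBX15 passed the filter on low values through its SUM149 siEZH2 libraries alone, so it had to be higher there. In MDA-MB-231, TBX3 and TBX20 were at 7.12 in all 4 libraries and TBX15 lay between 7.24 and 7.41. TBX18, of epicardium and ureter, read 10.67 and 10.68 under siEZH2, against 10.62 and 10.68 under siControl, in SUM149 without passing (0.03 ± 0.06, adjusted p = 0.72).

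Among LIM-homeodomain genes, LHX6, a forebrain interneuron factor, was higher in both lines at low levels. It read 8.19 and 8.18 under siEZH2, against 7.87 and 7.86 under siControl, in MDA-MB-231 (0.32 ± 0.06, limma adjusted p = 0.00036), while SUM149 libraries read 7.78 and 7.76 under siEZH2 against 7.61 and 7.51 under siControl (0.21 ± 0.06, adjusted p = 0.0069). LHX4, a pituitary factor, was lower in MDA-MB-231, at 8.32 and 8.39 under siEZH2 against 8.63 and 8.63 under siControl (-0.27 ± 0.07, limma adjusted p = 0.003), and in SUM149 read 7.62 and 7.63 under siEZH2 against 7.85 and 7.68 under siControl without passing (-0.14 ± 0.07, adjusted p = 0.076). The VST scale understates changes from few reads. On recovered reads LHX4 changed by -0.62 ± 0.17 in MDA-MB-231 and -0.68 ± 0.34 in SUM149 (edgeR adjusted p = 0.0047 and 0.11). LHX6 changed by 1.04 ± 0.22 and 1.19 ± 0.36. For neither gene was a difference between the lines called. LHX1, of kidney and head organiser, was at 7.22 to 7.24 in all MDA-MB-231 libraries. In SUM149 it read 8.30 and 8.52 under siEZH2 and 7.85 and 7.93 under siControl (0.53 ± 0.07, limma adjusted p = 2.9e-05), 2.98-fold more recovered reads, with the groups apart. LHX1 passed the filter on low values through these siEZH2 libraries alone, and LHX6 through those of MDA-MB-231, so each had to be higher there.

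The PAX and DLX genes tested had changes of at most 0.28 on the VST scale, which understates changes from few reads. PAX9, a factor of tooth and thymus, read 7.41 and 7.49 under siEZH2 and 7.33 and 7.23 under siControl in MDA-MB-231, the level of 0.848 to 9.19 normalised reads (0.17 ± 0.06, limma adjusted p = 0.024). In SUM149 it read 8.25 and 8.29 under siEZH2 against 8.01 and 7.97 under siControl (0.28 ± 0.06, limma adjusted p = 0.0012), 1.79-fold more recovered reads. PAX9 passed the filter on low values through these SUM149 siEZH2 libraries alone, so it had to be higher there. In MDA-MB-231 PAX9 averaged 7.49 normalised reads under siEZH2 and 1.85 under siControl (2.02 ± 0.67 on recovered reads, edgeR adjusted p = 0.017). PAX8, a thyroid and kidney factor, read 8.35 and 8.33 under siEZH2 against 8.15 and 8.11 under siControl in SUM149 (0.21 ± 0.06, limma adjusted p = 0.011), and in MDA-MB-231 9.17 and 9.05 under siEZH2 against 8.96 and 8.99 under siControl without passing (0.13 ± 0.06, adjusted p = 0.10). DLX1, a forebrain homeodomain factor, read 9.53 and 9.45 under siEZH2 against 9.31 and 9.25 under siControl in SUM149 (0.21 ± 0.06, limma adjusted p = 0.01) and 7.39 and 7.37 under siEZH2 against 7.24 and 7.28 under siControl in MDA-MB-231 (0.12 ± 0.06, adjusted p = 0.11). Its neighbour DLX2, 9.76 kb away, had 51.9 and 45.6 normalised reads under siEZH2 and 67.1 and 42.8 under siControl in SUM149 and was below the filter. DLX6 read 8.29 and 7.94 under siEZH2 against 8.13 and 7.98 under siControl in SUM149, overlapping groups that did not pass.

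In both lines together, 7 members were higher in each (SOX4, IRX3, IRX5, SOX12, SOX13, LHX6 and PAX9), 1 was lower in each (SOX9) and 0 changed in opposite directions. LHX6 and PAX9 passed the filter on low values in siEZH2 libraries alone. The share of all genes called in both lines was not computed. Since 56.6% of all genes were called in MDA-MB-231 and 58% in SUM149, these counts are not read as a result about the members. LHX4 and SIX2 were called in MDA-MB-231 and not in SUM149, but for neither was the difference between the lines called. Another 9 (DLX1, PAX8, SOX5, SOX7, LHX1, IRX2, TBX3, TBX15 and TBX20) were called in SUM149 and not in MDA-MB-231, and SIX4, SIX5, TBX18 and DLX6 in neither. PAX9 and SIX2 lost their MDA-MB-231 calls after median centring and without siControl replicate 2 of that line, PAX9 also without siEZH2 replicate 2 and SIX2 without replicate 1 of either group, with adjusted p up to 0.17 and 0.11. The count in SUM149 was lowest, 9 of 18 tested, without siEZH2 replicate 1. Edge cases in SUM149 were DLX1, IRX5, LHX6, PAX8 and SOX12, whose calls were lost without siControl replicate 2 and after quantile normalisation. Some markers of other cell types moved with siEZH2. The summed level of 13 fibroblast, endothelial and blood cell markers was 710 and 766 normalised reads under siEZH2 in MDA-MB-231. Under siControl it was 345 and 371, and COL1A2 and PDGFRB carried the difference. In SUM149 it was 4997 and 4734 under siEZH2 against 2261 and 2382 under siControl, and DCN carried the difference. Not all markers followed. In MDA-MB-231, COL1A1 had 173 and 162 normalised reads under siEZH2 against 184 and 183 under siControl. LUM had 45.3 and 52.3 against 65.4 and 70.4 there. In SUM149, PDGFRB had 6.86 and 8.09 under siEZH2 against 9.82 and 6.75 under siControl. CD3E was at 0 in every library, CDH5 and PTPRC at 0 to 2.48 normalised reads, and the part of these markers in the members' changes was not tested.

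On recovered reads, fitted with edgeR over 14657 genes, 11 of 33 members changed in MDA-MB-231, 8 higher and 3 lower, where 50.7% of genes did, 25.8% higher and 24.9% lower. In SUM149, 20 of 33 changed, 18 higher and 2 lower, where 49.8% of genes did, 27.3% higher and 22.5% lower. PAX6 and TBX6, among the 18, passed the low-count filter through the SUM149 siEZH2 libraries alone, so they had to be higher there.

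The size of the siEZH2 effect differed between the lines for 8 of 23 members, 6 with a higher and 2 with a lower value in SUM149 (limma interaction term, adjusted p under 0.05), where 21.5% of all genes did, 11.2% higher and 10.4% lower. SOX4 had a smaller rise in SUM149, by -0.43 ± 0.11 (limma adjusted p = 0.011, and 0.070 without siControl replicate 2 of MDA-MB-231). SOX7 differed by 0.64 ± 0.09 and SOX5 by 0.64 ± 0.09 (limma adjusted p = 0.00019 and 0.00022). LHX1 (0.53 ± 0.10), TBX15 (0.33 ± 0.10), TBX3 (0.29 ± 0.09), TBX20 (0.26 ± 0.09) and IRX2 (-0.45 ± 0.08) completed the 8. TBX3, TBX20 and IRX2 had no reads in the MDA-MB-231 libraries of this experiment and SOX5 and LHX1 hardly any, so for them the term repeats the SUM149 change. LHX1, SOX5 and TBX15 passed the filter on low values through SUM149 siEZH2 libraries alone, which favours a higher value in SUM149 for them. On recovered reads, fitted with edgeR, 2 of 33 members passed, 1 with a higher value in SUM149 (SOX7) and 1 with a lower one (SOX4), where 13.9% of genes did, 9.03% higher and 4.89% lower. SOX7 shares 39.4% of its exon bases with another gene on the same strand. In the limma fit the count was 4 without siControl replicate 2 of MDA-MB-231 or without either siEZH2 replicate of SUM149, and 5 without siControl replicate 1 or siEZH2 replicate 1 of MDA-MB-231.

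All members that changed under the RelA knockdown were higher. Under siRelA 5 of the 25 members tested were called, 5 higher and 0 lower (edgeR adjusted p under 0.05), where 19% of 15930 genes changed, 8.82% higher and 10.2% lower. The members' median change was 0.30 on the log2 scale, against 0.02 over all genes, and 12 members had an unadjusted p under 0.05. The share of tested members called, 20%, was close to that of all genes. Under siRelB 2 of 25 were called, 1 higher and 1 lower, where 18.3% of genes changed, 7.45% higher and 10.8% lower. The members' median was -0.07 there, against 0.0066 over all genes, and 7 had an unadjusted p under 0.05. The comparisons share the same control libraries, so their values are given side by side only.

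IRX5 and IRX3 were again among the members that rose. IRX5 had 14.4 and 12.8 CPM under siRelA, 10.1 and 9.64 under siRelB and 8.36 and 5.52 under siControl. Its change was 0.97 ± 0.21 under siRelA (edgeR adjusted p = 0.0029) and 0.51 ± 0.21 under siRelB, which did not pass (adjusted p = 0.10). No knockdown library overlapped the controls. IRX3 had 12.1 and 14.7 CPM under siRelA, 15.8 and 11.9 under siRelB and 8.49 and 9.53 under siControl. It was higher by 0.58 ± 0.19 under siRelA and by 0.62 ± 0.19 under siRelB (edgeR adjusted p = 0.041 and 0.031), with both knockdown groups above the controls. IRX1 had 9 to 23 counts in the 6 libraries and did not pass.

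SIX3, a forebrain and eye factor, had the largest called change under siRelA, from few reads. It had 43 and 44 counts under siRelA, 21 and 25 under siRelB and 10 and 12 under siControl. The change was 1.95 ± 0.57 under siRelA (edgeR adjusted p = 0.023) and 1.30 ± 0.58 under siRelB (adjusted p = 0.14). The 3 groups did not overlap. LHX6 had 5.79 and 6.28 CPM under siRelA, 2.71 and 3.13 under siRelB and 3.58 and 2.78 under siControl. It was higher under siRelA by 0.92 ± 0.28 (edgeR adjusted p = 0.026), while its siRelB and control libraries overlapped. IRX3, LHX6 and SIX3 each lost the siRelA call without either control library or without siRelA replicate 2, LHX6 and SIX3 also without siRelA replicate 1, and IRX3 and LHX6 also with DESeq2, with adjusted p of up to 0.26, 0.22 and 0.17 over all alternatives, and IRX5 without siControl replicate 2 (0.067). The siRelB call of IRX3 was lost without either control library, without siRelB replicate 1 and with DESeq2, with adjusted p up to 0.25.

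SOX9 separated the knockdowns. It had 193 and 177 CPM under siRelA, 132 and 119 under siRelB and 159 and 150 under siControl, 3 groups without overlap. The change was 0.26 ± 0.09 under siRelA (edgeR adjusted p = 0.047) and -0.30 ± 0.09 under siRelB (edgeR adjusted p = 0.025). The siRelA call was lost with RLE scaling and with no filter on low counts, and without 5 of the 6 libraries taken in turn, with adjusted p up to 0.33. The siRelB call was lost without either control replicate or siRelB replicate 2, with adjusted p up to 0.19. Counts of called members under siRelA were 2 without siControl replicate 1, 0 without siControl replicate 2, 3 without either siRelA replicate and 3 with DESeq2. Under siRelB the count was 1 without either control replicate or siRelB replicate 1, and 4 without siRelA replicate 2. Fibroblast genes again stood beside these changes: the 13 markers of other cell types summed to 83.2 and 69.0 CPM under siRelA, 57.7 and 47.6 under siRelB and 48.3 and 45.8 under siControl. COL1A1 and COL1A2 were called higher under siRelA (0.93 ± 0.14 and 0.75 ± 0.18), CD3E, ITGAM, CDH5 and DCN were at 0, and their part in the members' changes was not tested.

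**Figure D4:**
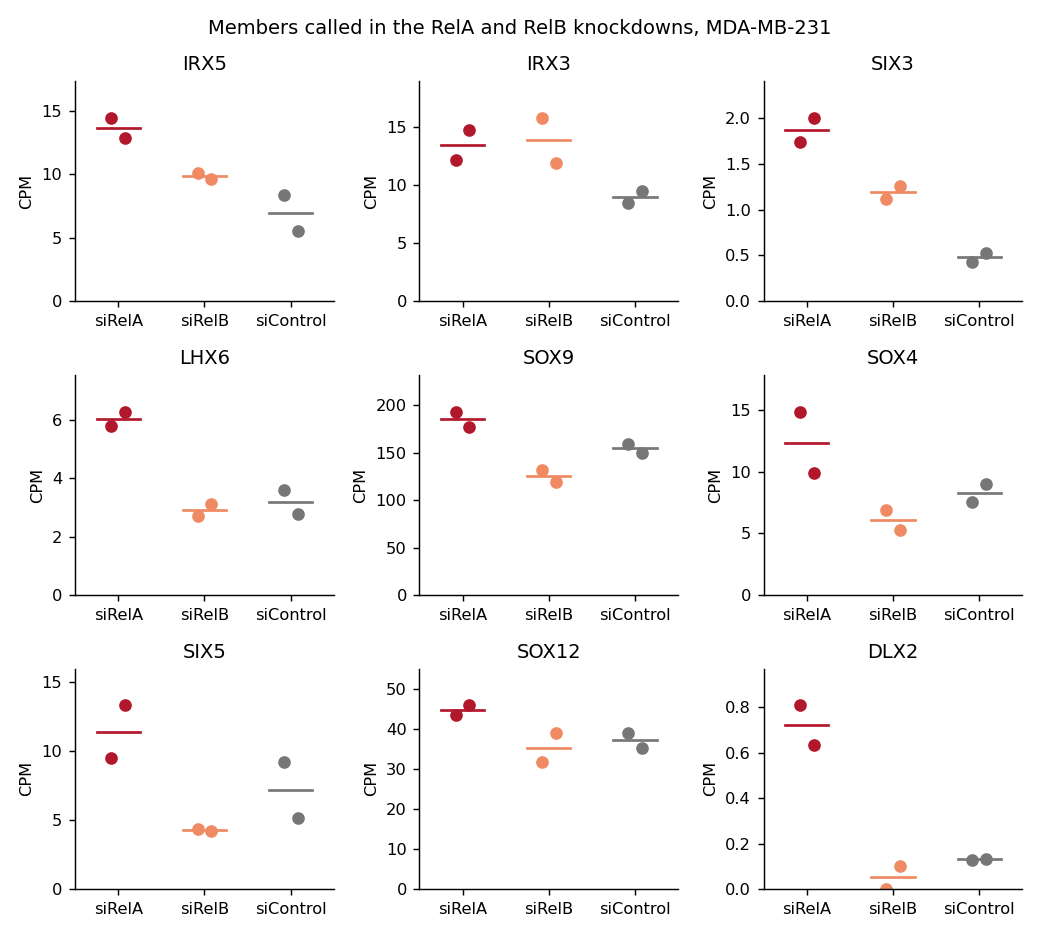
CPM (vertical axis, from 0) of 9 members in each library of the first experiment in MDA-MB-231, for siRelA, siRelB and siControl; points are libraries and short lines group means. IRX5, IRX3 and SIX3 lie above the controls in both knockdowns, and SOX9 is highest under siRelA at 193 and 177 CPM and lowest under siRelB at 132 and 119 CPM.

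Set directly against siRelB, siRelA libraries were higher for 6 of 25 members and lower for 0, where 29.9% of genes differed, 16% higher and 14% lower (edgeR), and 8 members had an unadjusted p under 0.05. SOX9 differed by 0.56 ± 0.09 (edgeR adjusted p = 0.00015) and LHX6 by 1.05 ± 0.28 (adjusted p = 0.0096). SIX5 had 9.47 and 13.3 CPM under siRelA and 4.35 and 4.24 under siRelB (1.41 ± 0.27, edgeR adjusted p = 0.00082), with 9.18 and 5.16 under siControl. Of the SIX5 exon bases 59.6% lie opposite another gene's exons, so its reads cannot be told from that gene's. SOX4 had 368 and 217 counts under siRelA and 130 and 104 under siRelB (1.03 ± 0.23, edgeR adjusted p = 0.0028), with 176 and 204 under siControl. SOX12 had 43.5 and 45.9 CPM under siRelA against 31.8 and 38.9 under siRelB (0.34 ± 0.12, edgeR adjusted p = 0.047). DLX2 had 20 and 14 counts under siRelA, 0 and 2 under siRelB and 3 and 3 under siControl. It passed the low-count filter through siRelA alone, so its call (3.67 ± 1.21, edgeR adjusted p = 0.03) had to fall that way. None of these 6 had overlapping groups, which with 2 libraries per group adds little to the calls. The count was 3 without siRelA replicate 1, and SOX4 lost its call there (adjusted p = 0.060). The DLX2 call was lost with no filter on low counts and the SOX12 call with DESeq2, with the replicate block and with only the groups compared in the fit. Both were also lost without any 1 library other than siRelB replicate 2, with adjusted p up to 0.21 for DLX2 and 0.36 for SOX12.

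Members that passed the filter in the first experiment without a call in any of its 3 comparisons were DLX1, DLX4, IRX1, LHX3, LHX4, LHX9, PAX8, PAX9, SIX2, SIX4, SOX6, SOX13, SOX15, TBX1, TBX18 and TBX19. SOX13 had 45.5 and 42.2 CPM under siRelA against 35.4 and 35.7 under siControl (0.30 ± 0.11, edgeR adjusted p = 0.064). PAX8 was lower in value in both knockdowns without passing, at 15.8 and 19.5 CPM under siRelA, 19.7 and 18.7 under siRelB and 21.1 and 23.8 under siControl. Changes under siRelA and siRelB, none of them called, were 0.16 and 0.31 for SIX4, -0.03 and 0.33 for SIX2, 0.34 and 0.60 for LHX4 and 0.08 and 0.17 for TBX1. For less abundant members they were 0.25 and -0.27 for DLX1, 0.31 and 0.56 for IRX1, 0.84 and 0.0092 for LHX9, -1.04 and -1.73 for PAX9, 0.56 and -0.26 for SOX6 and -0.39 and -1.96 for TBX19. TBX18 (1.18 and 1.21), LHX3 (0.11 and 1.37) and SOX15 (-0.90 and -0.22) completed the list. DLX4 shows how far single libraries can spread at this depth, with 9 and 17 counts under siRelA, 0 and 33 under siRelB and 42 and 18 under siControl.

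Across the 4 knockdown comparisons 20 members were called at least once. Of all genes tested, 19% changed under siRelA, 18.3% under siRelB, and 56.6% and 58% under siEZH2 in MDA-MB-231 and SUM149. The share of all genes called in several comparisons was not computed. IRX3 was higher in all 4, and SOX9 was called in all 4, higher under siRelA and lower in the other 3. IRX5 and LHX6 were higher in 3, under siRelA and under siEZH2 in both lines. The siRelA and siRelB calls of IRX3 and SOX9, and the siRelA calls of IRX5 and LHX6, were each lost when some single library was left out. PAX9, SOX4, SOX12 and SOX13 were higher in both siEZH2 comparisons and in neither Rel comparison. Another 12 members were called in 1 comparison, and 13 of the 33 tested in at least 1 experiment in none.

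The control libraries show how different the lines were without a knockdown. Between SUM149 and MDA-MB-231 under siControl, 20 of 23 members differed, 15 higher and 5 lower in SUM149 (limma), where 82.8% of all genes differed, 41.3% higher and 41.5% lower. Of the 23, 12 passed the filter through SUM149 libraries alone and 2, LHX4 and LHX6, through MDA-MB-231 libraries alone. Among these 14, 9 passed in control libraries of that line, which favours a difference for them, and 5 (LHX1, LHX6, PAX9, SOX5 and TBX15) passed in no control library. TBX3 read 10.40 and 10.30 in SUM149 and 7.12 and 7.12 in MDA-MB-231, at least 387-fold more recovered reads with the limit of 3 reads per library. IRX2 was likewise at least 209-fold, TBX20 at least 57.7-fold and DLX6 at least 22.5-fold higher in SUM149. TBX18 read 10.62 and 10.68 in SUM149 against 7.43 and 7.48 in MDA-MB-231, 177-fold more reads. The rest of the 12 were DLX1 (2.02 ± 0.06), SOX7 (0.73 ± 0.06), PAX9 (0.71 ± 0.06), TBX15 (0.69 ± 0.07), LHX1 (0.65 ± 0.07), SOX5 (0.61 ± 0.06) and SIX2 (0.34 ± 0.06), all on the log2 scale of the VST values, which understates changes from few reads.

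Among the 9 members detected well in both lines, SOX4 differed most. It read 10.24 and 10.26 in SUM149 and 8.39 and 8.26 in MDA-MB-231 (1.93 ± 0.07, limma adjusted p = 1.7e-11), 9.30-fold more recovered reads. SOX9 read 9.87 and 9.88 in SUM149 against 10.86 and 10.72 in MDA-MB-231 (-0.92 ± 0.08, limma adjusted p = 1e-07). PAX8 read 8.15 and 8.11 in SUM149 against 8.96 and 8.99 in MDA-MB-231 (-0.85 ± 0.06, limma adjusted p = 2.1e-08). IRX3 was higher in SUM149 by 0.43 ± 0.07 and SIX4 by 0.22 ± 0.06, and SOX13 was lower by -0.35 ± 0.07. SOX12, SIX5 and IRX5 did not pass, with differences of -0.07 ± 0.07, -0.05 ± 0.06 and 0.06 ± 0.06. LHX4 (-0.86 ± 0.07) and LHX6 (-0.30 ± 0.06) were lower in SUM149. On recovered reads 27 of 33 members differed, 20 higher and 7 lower in SUM149, where 79.7% of genes did, 38.2% higher and 41.5% lower.

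**Figure D5:**
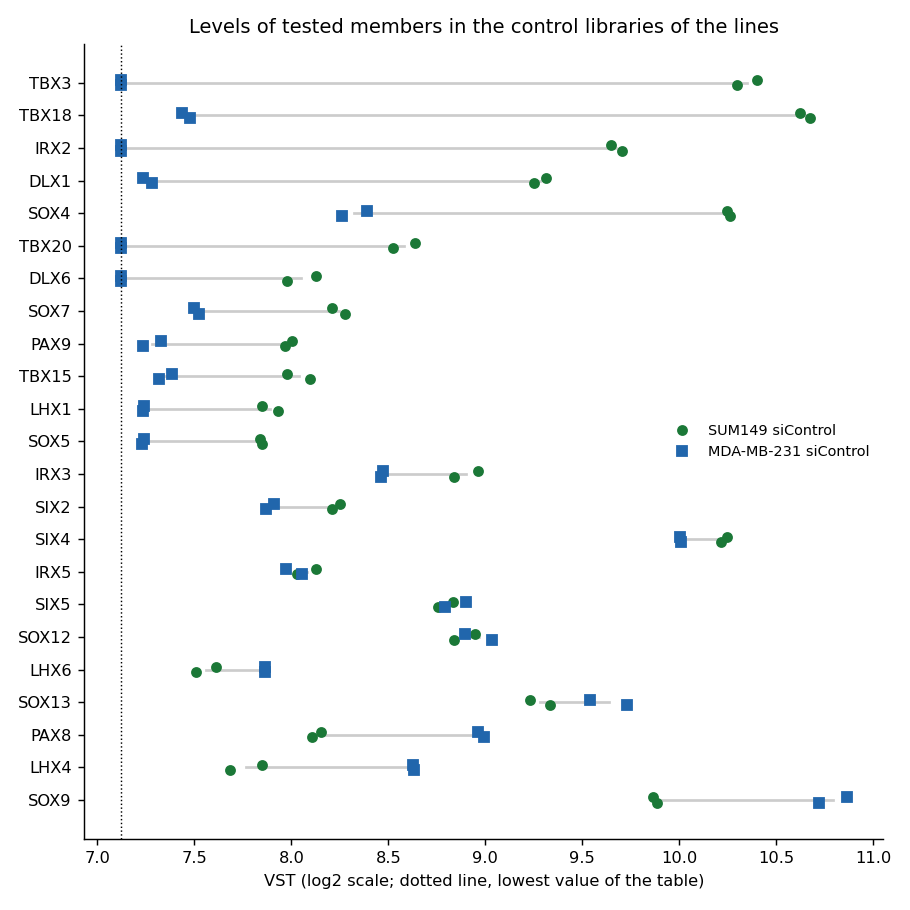
VST value (horizontal axis, log2 scale) of the 23 tested members in the siControl libraries of SUM149 (green circles) and MDA-MB-231 (blue squares), ordered by the difference; grey lines join group means and the dotted line marks the lowest value of the table. TBX3, IRX2, TBX20 and DLX6 lie on that line in MDA-MB-231, and SOX9, LHX4, PAX8, SOX13 and LHX6 are the members lower in SUM149.

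Genes whose products act with these factors were read from a list of 28 (EYA, DACH, LDB, LMO, SSBP, TLE, MEIS, PBX and CITED genes and SP8). Under siEZH2, 12 of 17 tested changed in MDA-MB-231, 7 higher and 5 lower, with a median change of 0.06, where 56.6% of all genes changed, and 11 of 17 in SUM149, 6 higher and 5 lower, with a median of 0.05, where 58% did. PBX2, a homeodomain partner, was lower by -1.43 ± 0.06 in MDA-MB-231 and -0.86 ± 0.06 in SUM149 (limma adjusted p = 5.9e-10 and 6.9e-08). EYA4 and EYA3, cofactors of the sine oculis homeobox factors, were lower too, EYA4 by -0.42 ± 0.06 and -0.56 ± 0.06 and EYA3 by -0.36 ± 0.06 and -0.38 ± 0.06. LDB1 and SSBP3, which assemble LIM-homeodomain complexes, were higher, LDB1 by 0.28 ± 0.06 in MDA-MB-231 and 0.41 ± 0.06 in SUM149 and SSBP3 by 0.43 ± 0.07 and 0.69 ± 0.07. LMO4 was higher in MDA-MB-231 (0.68 ± 0.06) and CITED2 lower in SUM149 (-0.64 ± 0.08). Under siRelA 2 of 19 changed, MEIS2 (-0.73 ± 0.20) and SSBP4 (-0.52 ± 0.12), where 19% of all genes changed, and under siRelB 1 of 19, LMO4 (0.45 ± 0.11, edgeR adjusted p = 0.0077), where 18.3% did.

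A second list held 88 developmental factors of other families, such as FOX, GATA, RUNX, ALX and NKX genes. Under siEZH2, 7 of 32 tested changed in MDA-MB-231, 5 higher and 2 lower, and 17 of 32 in SUM149, 12 higher and 5 lower. Of all genes tested, 56.6% changed in MDA-MB-231, 29.4% higher and 27.1% lower, and 58% in SUM149, 29.4% higher and 28.6% lower. In SUM149 the share changed was thus close to that of all genes. In MDA-MB-231 it was lower, but the list's median change there was 0, the value fitted to genes without reads. FOXF2, a mesenchymal forkhead factor, was higher in both, by 0.67 ± 0.07 and 0.63 ± 0.07 (limma adjusted p = 1.9e-06 and 3.1e-06), and TFAP2C by 0.32 ± 0.07 and 0.40 ± 0.07. RUNX1 and HHEX were lower in both. PITX1 (0.64 ± 0.13) and RUNX2 (0.62 ± 0.10) were higher in MDA-MB-231, and FOXL1 (0.81 ± 0.06), FOXD1 (0.73 ± 0.06) and ALX4 (0.48 ± 0.07) in SUM149, where FOXA1, a luminal pioneer factor, was lower (-0.54 ± 0.07). Under siRelA 1 of 29 changed, FOXF2 (-0.51 ± 0.16), where 19% of all genes did. Under siRelB 3 of 29 changed, FOXF2 (-0.61 ± 0.16), TFAP2A (-0.80 ± 0.19) and GATA2 (0.71 ± 0.18), where 18.3% did.

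PRC2 genes themselves were read from a list of 13. Under siEZH2, 10 of 13 changed in MDA-MB-231, 2 higher and 8 lower, EZH2 included, where 56.6% of all genes changed, and 10 of 13 in SUM149, 3 higher and 7 lower, where 58% did. The core subunits SUZ12 and EED were lower by -0.36 ± 0.07 and -0.33 ± 0.06 in MDA-MB-231 and by -0.32 ± 0.07 and -0.24 ± 0.06 in SUM149. JARID2, a targeting subunit, was lower in MDA-MB-231 (-0.16 ± 0.06) and higher in SUM149 (0.49 ± 0.06, limma adjusted p = 8.2e-06). Under siRelA 5 of 13 changed, beside 19% of all genes, among them JARID2 (0.88 ± 0.10, edgeR adjusted p = 6.6e-06) and EPOP (-1.14 ± 0.18), and under siRelB 3 of 13, beside 18.3%, EPOP (-0.64 ± 0.17), PHF19 (-0.54 ± 0.08) and RBBP4 (0.31 ± 0.09).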

How the data were processed

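The first experiment's deposited table holds raw counts per gene, made by the authors with HISAT2 2.0.5 and featureCounts 1.5.0-p3 on hg19, per the submitters' processing notes. The second deposited table holds log2-scale variance-stabilised values, for which the same notes name cutadapt, STAR 2.5.2b, Salmon and DESeq2. Which of the named tools made which step is not given in the sources used here beyond this. The 30 ChIP libraries are not analysed here.

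Counts (18.6 to 24.4 M per library) were tested with edgeR 4.0.16 (quasi-likelihood, TMM scaling, filterByExpr; 15930 genes, all 6 libraries). VST values were tested with limma 3.58.1 (trended empirical Bayes; 12356 genes at least 1 above the table's minimum in at least 2 libraries; all 8 libraries), which gives changes on the VST scale. A change was called at Benjamini-Hochberg adjusted p under 0.05 over all genes tested. Both scripts were tested on simulated data. Normalised reads were recovered by inverting the VST. Of recovered values between 1 and 1000 reads, 31.7% to 56.8% were within 0.05 of a whole number, so the edgeR test on them is only an alternative, chosen after seeing the data. Intervals and limits cover counting error only.

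Gene identifiers were matched to GENCODE v44 (58207 of 58735) and symbols likewise (23961 of 27315), and gene positions are on GRCh38, with no coordinate converted from hg19. Levels per length used GENCODE exon lengths. Members called in a knockdown were named with their library values, other tested members with a level or change, and untested members by name. One gene that the name rule takes, and 1 gene of each of 3 lists, are not reported here and are in no count of members or lists. The members and lists were chosen with earlier results of these data known. Alternatives were other scalings, filters and tests (DESeq2 1.42.0), a replicate block and leaving out each library. R 4.3.3 and Python 3.11.15 were used.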

Additional observations from a re-analysis of the deposited data

Results flagged for a closer look

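The change under siEZH2 differed between SUM149 and MDA-MB-231 for 8 members by the limma interaction term, given as the SUM149 change minus the MDA-MB-231 change on the log2 scale of the VST values. It was -0.43 for SOX4, which rose by 0.49 in SUM149 and 0.92 in MDA-MB-231. For SOX7 it was 0.64 and for SOX5 0.64, members that rose in SUM149 and had at most 12.5 normalised reads in MDA-MB-231. LHX1 (0.53) and TBX15 (0.33) also rose in SUM149 and had at most 5.63 normalised reads in MDA-MB-231. SOX5, LHX1 and TBX15 passed the filter on low values through SUM149 siEZH2 libraries alone, so they had to be higher there. IRX2 (-0.45), TBX3 (0.29) and TBX20 (0.26) had no reads in the MDA-MB-231 libraries of this experiment. In the first experiment, MDA-MB-231 libraries held at most 6 counts of IRX2, 5 of TBX3 and 0 of TBX20.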

How the results depend on the processing

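Of 68 called member changes, 42 kept their call under every alternative computed, 26 lost it under at least 1 and 0 reversed. In the second experiment DLX6, LHX1, LHX6, PAX9, SOX5 and TBX15 were tested in only 6 of the 8 fits that left out 1 library. Without a library that carried them past the filter they were not tested, so their calls were not examined there. With DESeq2 the number of members called was 3 for siRelA and 1 for siRelB, and with no low-count filter it was 4 for siRelB. The difference between lines in the siEZH2 change was called for 2 members on recovered reads, and for 2 with the replicate block as well. With no filter on low values 32 members differed between the lines. The cause of these shifts was not tested. Leaving out each library in turn gave 0 to 7 members for siRelA, 1 to 4 for siRelB, 3 to 8 for siRelA against siRelB, 7 to 10 for siEZH2 in MDA-MB-231, 9 to 17 for siEZH2 in SUM149, 4 to 7 for the difference between the siEZH2 changes and 15 to 20 between the lines. The group left with 1 library is then assumed to vary like the others.

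Replicate numbers are not known to pair the libraries, and deviations of same-numbered libraries in the groups compared correlated at -0.02 to 0.05 in the first experiment, 0.09 between siEZH2 and siControl in MDA-MB-231 and -0.12 in SUM149. With the replicate block 5 members were called for siRelA, 2 for siRelB, 5 for siRelA against siRelB, 10 and 17 for siEZH2 in MDA-MB-231 and SUM149, 7 for the difference between them and 20 between the lines. With the numbers crossed in SUM149 the count there was 17. Depth limits members under about 10 reads.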

Other observations

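On recovered reads, tested with edgeR as an alternative chosen after seeing the data, 3 further members were higher under siEZH2 in SUM149 that lay below the filter on VST values: PAX6, an eye and forebrain factor, by 1.85 (adjusted p = 0.017), TBX6, a paraxial mesoderm factor, by 1.85 (adjusted p = 0.0096) and TBX19, a pituitary factor, by 1.15 (adjusted p = 0.021). PAX6, with 26.3% of its exon bases opposite another gene's exons, and TBX6 reached at most 22.5 and 17.2 normalised reads. These 2 passed the low-count filter through the SUM149 siEZH2 libraries alone, so they had to be higher there. TBX19 had 24.5 and 37.4 normalised reads under siEZH2, against 13.1 and 14.6 under siControl.

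TBX1, a pharyngeal T-box factor, had 221 to 294 counts in the 6 MDA-MB-231 libraries of the first experiment and 29.8 to 52.3 normalised reads in the 4 of the second, and it was at 0 in SUM149.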
